A study of Homo sapiens with 14 samples.

Results

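Cultures given 5 µM of the GSK3 inhibitor CHIR99021 (CHIR) were set against cultures given 3 µM, both harvested at day 11 of differentiation toward midbrain dopamine neurons. The labels of dose and day chose the members, 2 libraries in each group and 4 of the 14 in the series, and no measured value entered the choice. All 4 were made from the human embryonic stem cell line H9 (WA-09), which is established and pluripotent, with no genetic change named. Every culture started with Sonic hedgehog protein (SHH C25II), LDN, SB431542, the ROCK inhibitor Y-27632 and 0.7 µM CHIR. Only the dose of CHIR from day 4 to day 10 separated the groups: LDN, SB431542 and SHH were withdrawn in both at day 7, and from day 10 both had 3 µM CHIR with BDNF, ascorbic acid, GDNF, TGFβ3 and dibutyryl cAMP. The design text of the series gives an earlier end of the dose than the sample labels. By the days in the labels, both groups had been at the same 3 µM for the last day when the RNA was taken. A further 4 libraries, 2 at 0.7 µM and 2 at 7.5 µM of the same day and schedule, entered the fit for its estimate of spread and are shown beside the values.

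GSK3 marks the coactivator β-catenin for destruction, and its inhibition by CHIR lets β-catenin reach the nucleus and act there with DNA-binding proteins of the TCF/LEF family. The genes they switch on include several inhibitors of the pathway itself, so the levels of these feedback genes serve as a readout of its activity. In the neural tube WNT signalling patterns the axis from front to back, and at its midbrain-hindbrain boundary it works together with FGF8 and related FGFs and with the transcription factor EN1. Dopamine neurons of the midbrain arise from its floor plate, which SHH induces.

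Gene counts came to 26.65 and 28.4 M in replicates 1 and 2 at 3 µM and to 20.77 and 34.24 M at 5 µM. Mitochondrial genes held 7.53% and 3.25% of these counts at 3 µM and 8.69% and 3.57% at 5 µM. The 50 highest genes of each library held 25.3% and 13.7% at 3 µM and 24.9% and 13.3% at 5 µM. The part of these library traits in the gap between replicates was not tested. Replicate 1 differed from replicate 2 more than 5 µM differed from 3 µM. Over the 11618 genes of at least 5 CPM (counts scaled to library size by TMM) on average, the log2 difference between replicates had an SD of 1.14 at 3 µM and 1.07 at 5 µM, whereas the log2 ratio of 5 over 3 µM had an SD of 0.364 in the replicate 1 pair and 0.267 in the replicate 2 pair. The differences between replicates were nearly the same at both doses (Pearson r = 0.958 across these genes, which are not independent replicates). In the sample descriptions a code is shared by the day 11 libraries numbered 1 and a different code by those numbered 2, so libraries were paired by number. Markers of neural progenitors, the labelled cell type, were present: SOX1, SOX2, SOX3, NES, VIM and HES5 summed to 10920 and 6292 CPM at 3 µM and to 11650 and 7044 at 5 µM, most of it VIM, with SOX2 between 154.8 and 322.8 CPM and HES5 between 2.773 and 4.73. The 8 pluripotency markers summed to 1983 and 1821 CPM at 3 µM and to 1633 and 1477 at 5 µM. Most of that was LIN28A, at 1940 and 1734 against 1588 and 1393 CPM. DPPA4 was at 37.4 and 80.1 against 41.8 and 78.4 CPM. NANOG had 0 counts in all 4 libraries and POU5F1 stood at 0.754 to 1.68 CPM.

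Raising CHIR from 3 to 5 µM left 76.9% of the genes of at least 5 CPM with a 95% interval inside 2-fold, and the genes that differed in the same direction in both pairs included WNT targets, FGF targets, boundary genes and a few floor plate genes. APCDD1 and EN1, the marker genes of the comparison, were higher at 5 µM in both pairs, as were SP5, DKK1, LEF1, FGF17, ETV4 and SPRY1. DCC, LRP2, TCF7L2 and SPON1 were lower in both pairs. FOXA2, LMX1A and OTX2, which mark midbrain floor plate progenitors, had 95% intervals inside 2-fold.

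By the test across the 8 day 11 libraries with replicate as a block (edgeR's quasi-likelihood test, Benjamini-Hochberg adjustment), no gene passed in either direction (0% of 18709 higher, 0% lower). The smallest adjusted p was 0.437, 527 genes had an unadjusted p under 0.05 (331 higher, 196 lower), and DESeq2 with the same block called 33. Restricted to the 4 libraries, with 1 residual degree of freedom, the same test passed 120 of 17288 genes (0.694%), 87 higher (0.503%) and 33 lower (0.191%). That count moved with the method: among other blocked fits of the 4 libraries it was 44 with limma-voom (31 higher, 13 lower), 360 with DESeq2 (159 higher, 201 lower), 1181 (471 higher, 710 lower) with DESeq2's size factors in edgeR and 1007 (465 higher, 542 lower) with no filter on low counts, and without the block it was 0. In all 5 blocked fits 41 genes passed, 28 higher and 13 lower. Higher genes among the 41 were APCDD1, SP5, DKK1, WNT4, EN1, CDX2, CA4, SPOCK1, CDH6 and ERVMER34-1. Lower genes among them were TCF7L2, SPON1, DCC, LRP2, COL21A1, PRSS23 and CAPN6. The other genes for which an adjusted p under 0.05 in the 4-library fit is printed below were not among the 41. Those were LEF1, LGR4, FGF17, ETV4, SPRY1, GLI3, PAX3, BMP4, ZIC1, T, HES7, MKI67, CCNB1, FABP7, GAD1, GFRA1 and DLK1. COL1A1, NDRG1, RASGEF1B, EGFLAM, SH3RF3 and TNFRSF11B, given below without that p, passed the 4-library fit but were not among the 41 either. Adjusted p-values given for the 4-library fit are edgeR's with the block, and each stands beside a gene that did not pass in the 8-library fit. Nothing states that the replicates were separate cultures, so the p-values speak of the spread among libraries alone, which may be technical.

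A second measure used the pairs directly. A gene was counted as shifted when its log2 ratio of 5 over 3 µM, taken on CPM plus 0.5, was at least 0.5 (1.41-fold) in the same direction in both pairs and its mean was at least 5 CPM. That held for 181 genes upward (1.56% of 11618) and 126 downward (1.08%), 59% of the shifted genes being higher, whereas 18 genes differed by that much in opposite directions. That lean upward was not held at every setting: with DESeq2's size factors the split was 163 higher and 163 lower, and at a threshold of 0.25 it was 735 higher and 881 lower. Of those shifted, 103 higher and 51 lower genes had both 5 µM libraries beyond both 3 µM libraries, which held for 5.35% (higher) and 5.48% (lower) of the 11618 genes, and the other 153 overlapped because the replicates lay further apart than the doses. AFF2, at −0.501 in its smaller pair, stood just inside the threshold and RTKN2, at 0.498, just outside. On the scatter of the pair shifts, APCDD1 and DCC had the largest shift held in both pairs, upward and downward.

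**Figure D1:**
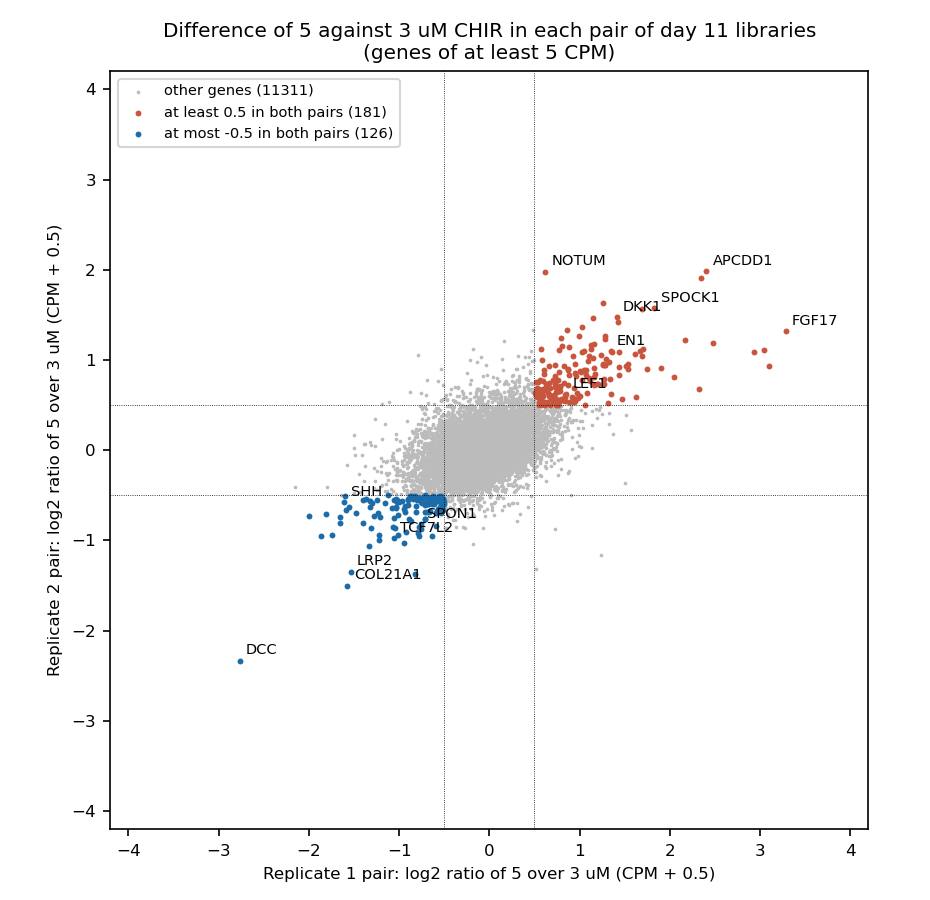
Each point is a gene of at least 5 CPM, with the log2 ratio of 5 over 3 µM CHIR (CPM plus 0.5) in the replicate 1 pair on the horizontal axis and in the replicate 2 pair on the vertical axis; dotted lines mark 0.5 and −0.5. The 181 higher and 126 lower genes in colour lie past the lines in both pairs, and 18 of the others lie past them in opposite directions.

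The first group of interest was what CHIR acts on. Of 14 genes of the GSK3 and β-catenin machinery, 11 had an interval inside 2-fold, near the 76.9% of all genes of at least 5 CPM, and the median fitted log2 difference was −0.026, against −0.018 over all genes tested. GSK3A, a target kinase of CHIR, stood at 72.2 and 43.4 CPM in replicates 1 and 2 at 3 µM and at 71.2 and 45.1 at 5 µM, with a fitted difference of 0.02 (95% interval −0.50 to 0.53). GSK3B, the other target, differed by 0.07 (−0.44 to 0.58), and CTNNB1, which encodes β-catenin, by 0.19 (−0.43 to 0.81). For both kinases the replicates of a dose lay further apart than the doses did within a pair.

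The DNA-binding partners of β-catenin did not all go one way. TCF7L2 (ENSG00000148737.11) stood at 59.8 and 91.0 CPM at 3 µM and at 28.4 and 46.1 at 5 µM, a fitted log2 difference of −1.02 ± 0.32 (SE; 95% interval −1.73 to −0.32; adjusted p = 0.0188 in the 4-library fit). Both 5 µM libraries lay below both at 3 µM. TCF7L1, mostly a repressor of WNT targets, was at 127 and 62.0 CPM at 3 µM against 79.45 and 47.0 at 5 µM, where the groups overlapped. LEF1 went the other way, from 81.1 and 107 CPM to 147 and 165 (0.75 ± 0.26; interval 0.16 to 1.33; adjusted p = 0.0347 in the 4-library fit), with no overlap. TCF7 was low, at 3.41 and 2.32 CPM against 4.22 and 5.87.

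Among 16 genes of WNT feedback and direct WNT targets, 5 were shifted higher and none lower. Of all genes of at least 5 CPM, 1.56% were shifted higher and 1.08% lower. A positive estimate was found for 14 of the 16, against 47.4% positive and 52.6% negative among all genes tested. LGR5, at most 0.135 CPM in the 4 libraries, was the member whose sign turned with DESeq2's size factors (0.012 to −0.01). Their median fitted log2 difference was 0.522. This list, like every other list used here, was drawn up with earlier results of these data known. The direction of each list, set beside the share over all genes, is therefore a description. RefSeq's promoter table (GRCh38.p14) held 10 of the 16, and the 250 bases before the start site are shown for the 4 of the 5 shifted genes that it holds, because these carry the WNT part of the comparison. They lie at chr2:170715087-170715336 (plus strand) for SP5, chr10:52314031-52314280 (plus) for DKK1, chr18:10454385-10454634 (plus) for APCDD1 and chr4:108166302-108166551 (minus) for LEF1. Capitals mark matches on either strand to the core letters that TCF/LEF proteins bind, searched as CTTTGAA and as CTTTGAT and as CTTTGTA and as CTTTGTT.
SP5: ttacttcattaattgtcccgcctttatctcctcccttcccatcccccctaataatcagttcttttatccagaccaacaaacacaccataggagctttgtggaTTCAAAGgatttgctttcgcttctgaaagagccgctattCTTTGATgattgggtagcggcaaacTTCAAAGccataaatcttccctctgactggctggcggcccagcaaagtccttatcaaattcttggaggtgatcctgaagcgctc
DKK1: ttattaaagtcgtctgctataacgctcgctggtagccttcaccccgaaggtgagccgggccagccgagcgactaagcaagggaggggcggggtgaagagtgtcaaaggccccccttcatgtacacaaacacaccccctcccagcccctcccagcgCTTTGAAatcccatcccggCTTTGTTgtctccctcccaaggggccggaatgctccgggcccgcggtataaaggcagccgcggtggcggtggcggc
APCDD1: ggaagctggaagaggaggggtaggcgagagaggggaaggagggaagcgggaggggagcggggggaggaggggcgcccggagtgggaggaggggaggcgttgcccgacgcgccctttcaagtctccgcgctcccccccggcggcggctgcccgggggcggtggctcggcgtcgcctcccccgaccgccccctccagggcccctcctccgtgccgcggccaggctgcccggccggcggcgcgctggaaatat
LEF1: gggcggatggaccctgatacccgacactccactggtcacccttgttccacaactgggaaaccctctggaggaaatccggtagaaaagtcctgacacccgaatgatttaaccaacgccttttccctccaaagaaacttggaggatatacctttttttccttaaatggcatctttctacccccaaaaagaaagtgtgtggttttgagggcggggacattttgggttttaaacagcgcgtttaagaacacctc

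SP5 held 3 matches, the nearest starting 84 bases before the start site, and DKK1 held 2, the nearer starting 76 bases before it. APCDD1 and LEF1 held none in this window. A match was found in 12% of all 35116 promoters in the table, in 23.1% of the 13 promoters of the WNT list, in 12.6% of 191 promoters of the genes shifted higher and in 13.9% of 144 of those shifted lower. The letters are a description of the window and were not tested for binding.

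APCDD1 (ENSG00000154856.7), a membrane inhibitor of WNT receptors, differed most in the list. It stood at 9.995 and 13.3 CPM at 3 µM (11.7 ± 2.37, SD, n = 2) and at 55.1 and 54.1 at 5 µM (54.6 ± 0.647, SD, n = 2). The groups were far apart, and the fitted difference was 4.61-fold (95% interval 2.84 to 7.50; log2 2.205 ± 0.316 SE; adjusted p = 0.437 in the 8-library fit and 0.00345 in the 4-library fit). It stayed near its 3 µM level at 0.7 µM (11.7 and 6.18 CPM) and reached 367 and 257 CPM at 7.5 µM, so its 0.7 and 3 µM libraries overlapped and its 5 µM libraries did not overlap with either.

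SP5 (ENSG00000204335.3), a transcription factor that WNT induces directly, went from 45.5 and 36.3 CPM to 112 and 73.8. Both 5 µM libraries were above both 3 µM libraries, and the fitted log2 difference was 1.19 ± 0.475 (SE; interval 0.13 to 2.24; adjusted p = 0.0152 in the 4-library fit). DKK1 (ENSG00000107984.5), a secreted inhibitor of the WNT co-receptors, stood at 28.97 and 64.05 CPM against 78.0 and 178. Its pair shifts were almost equal, 1.41 and 1.47, although replicate 2 was higher than replicate 1 at every dose (adjusted p = 0.00345 in the 4-library fit). NOTUM, an enzyme that inactivates WNT proteins, stood at 24.3 and 7.97 CPM against 37.6 and 32.9, a shift of 0.62 in replicate 1 and 1.98 in replicate 2 (adjusted p = 0.0883 in the 4-library fit). Its 7.5 µM levels, 25.1 and 18.3 CPM, were below those at 5 µM.

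Other feedback genes were already high at 3 µM and differed less. AXIN2, a scaffold of the β-catenin destruction complex and the common readout of the pathway, was at 116 and 161 CPM against 148 and 239 (log2 0.45, interval −0.23 to 1.13; adjusted p = 0.0993 in the 4-library fit). NKD1, an inhibitor of the transducer Dishevelled, was at 406 and 343 CPM against 473 and 540, with an interval of −0.17 to 1.01 that just passed 2-fold. ZNRF3, which removes WNT receptors from the cell surface, was bounded most closely of the list, at 0.14 with an interval of −0.36 to 0.65.

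**Figure D2:**
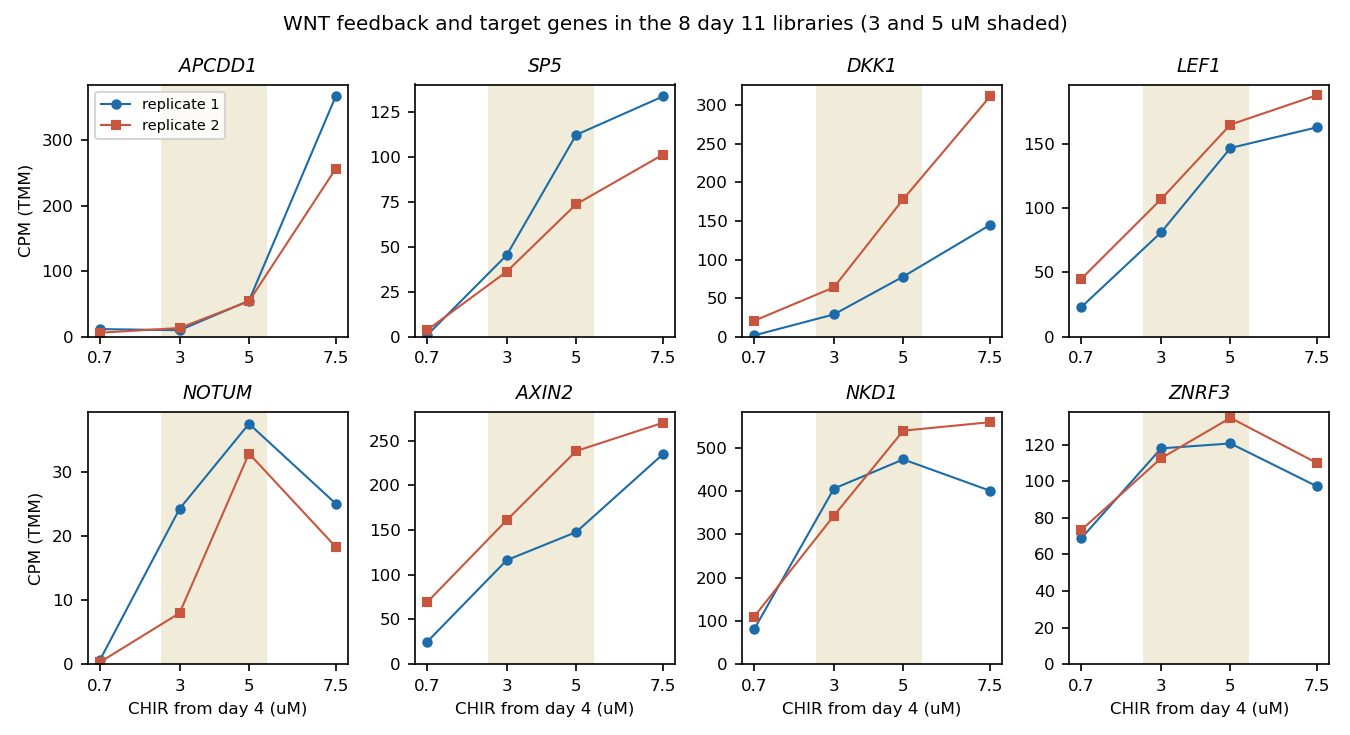
CPM of 8 WNT feedback and target genes (vertical axes, from 0) against the CHIR dose from day 4 in µM (horizontal axes), with replicate 1 as circles and replicate 2 as squares; the shaded band holds the 3 and 5 µM libraries. APCDD1 is flat to 3 µM and higher from 5 µM, whereas ZNRF3 differs little between 3 and 5 µM (118 and 113 against 121 and 135 CPM).

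Of the WNT ligands, 13 of 18 passed the filter on low counts and only 3 reached 5 CPM. WNT4 stood at 18.7 and 8.21 CPM at 3 µM and at 40.1 and 15.6 at 5 µM (log2 1.02 ± 0.285; interval 0.39 to 1.65; adjusted p = 0.0314 in the 4-library fit). It was about as much higher in each pair, while replicate 2 at 5 µM lay below replicate 1 at 3 µM. WNT5A, a ligand of the midbrain floor plate, was bounded inside 2-fold (interval −0.62 to 0.98). WNT1, which with EN1 marks the midbrain, had 0 and 3 counts at 3 µM and 0 and 3 at 5 µM, too few for a comparison.

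Receptors and their cofactors split. LGR4, a receptor for R-spondins, was lower in both pairs, from 39.0 and 274 CPM to 15.4 and 151 (log2 −1.08, interval −2.155 to −0.003; adjusted p = 0.0261 in the 4-library fit). The replicates of LGR4 differed more than the doses. FZD5 was lower by 0.75 and 0.56 in the pairs, and FZD10 higher by 0.72 and 0.82, from 14.3 and 6.55 CPM to 23.9 and 12.0. RSPO1, a secreted WNT enhancer, was below 2 CPM in all 4 libraries, with 0.288 and 0.555 CPM against 1.35 and 1.72. Of the secreted inhibitors, FRZB was higher (10.5 and 12.3 against 19.7 and 20.55 CPM, no overlap), and SFRP1 was at 121.8 and 174.5 against 68.7 and 124.7 CPM.

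EN1 (ENSG00000163064.6), the midbrain and anterior hindbrain marker of the comparison, stood at 29.9 and 12.0 CPM at 3 µM and at 76.8 and 26.3 at 5 µM. It was higher in both pairs, by 1.35 and 1.10, but the groups overlapped since replicate 2 at 5 µM lay below replicate 1 at 3 µM. The fitted log2 difference was 1.28 ± 0.51 (interval 0.14 to 2.41), with an adjusted p of 1 in the 8-library fit and 0.0155 in the 4-library fit. At 0.7 µM it was at 3.35 and 8.01 CPM and at 7.5 µM at 113 and 84.6.

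Of 10 boundary genes 9 had a positive estimate, against 47.4% of all genes tested. Of them 3 were shifted higher, against 1.56% of genes of at least 5 CPM. Of the 6 members of at least 5 CPM, FGF17, a secreted FGF of the boundary, differed most: it stood at 3.41 and 2.22 CPM at 3 µM and at 37.6 and 6.30 at 5 µM (log2 2.46 ± 0.46; interval 1.43 to 3.495; adjusted p = 0.0362 in the 4-library fit). Both 5 µM libraries were above those at 3 µM, with most of the difference in replicate 1. PAX5 was at 7.30 and 5.10 against 11.0 and 7.54 CPM, and FGF8, the organizing signal of the boundary, at 16.6 and 3.19 against 21.7 and 4.31 (log2 0.40, interval −0.68 to 1.48). PAX8 was the member with a negative estimate (−0.23, interval −1.13 to 0.67). EN2 rested on 1 count at 3 µM against 22 at 5 µM and is given no fold. The hindbrain genes HOXA2 and HOXA3 had at most 2 counts in any of the 4 libraries.

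Targets of FGF signalling were positive without exception, 10 of 10 against 47.4% of all genes tested, with a median of 0.746, and 6 were shifted higher, against 1.56% of genes of at least 5 CPM. ETV4, a transcription factor that FGF induces, was at 3.70 and 7.35 CPM against 12.4 and 15.9 (log2 1.402 ± 0.474; adjusted p = 0.0355 in the 4-library fit), with no overlap. SPRY1, an intracellular inhibitor of FGF receptor signalling, was at 4.61 and 14.3 against 11.8 and 28.0 CPM (adjusted p = 0.0353 in the 4-library fit). ETV1, SPRY2, SPRY4 and SPRED2 were the other members shifted. DUSP6, a phosphatase of the same feedback loop, was at 58.0 and 59.2 against 80.0 and 84.3 CPM, which missed the shift threshold in replicate 1 at 0.46, and SPRED1 was the member bounded inside 2-fold (−0.43 to 0.64). Replicate 1 was lower than replicate 2 in both groups for all 10 genes.

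The midbrain floor plate list split by gene, with 3 of 12 shifted lower, none higher, and 6 of 12 estimates positive. Of all genes of at least 5 CPM, 1.08% were shifted lower. SPON1, the secreted floor plate protein F-spondin, was at 229 and 224 CPM at 3 µM against 135 and 126.5 at 5 µM (log2 −0.79 ± 0.26 SE; interval −1.37 to −0.215; adjusted p = 0.0261 in the 4-library fit). SHH, the floor plate's own signal, was at 52.1 and 18.7 against 16.8 and 12.4 CPM (adjusted p = 0.0795 in the 4-library fit). Both genes had their 5 µM libraries below the 3 µM libraries, without overlap.

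Of the 12 floor plate genes 4 had an interval inside 2-fold (50.1% of all genes tested did), among them 3 transcription factors of dopamine neuron progenitors. All 4 were among the 9 members of at least 5 CPM, and 76.9% of all genes of that level lay inside 2-fold. FOXA2 was at 115 and 51.5 CPM at 3 µM against 125 and 57.9 at 5 µM (log2 0.15, interval −0.52 to 0.81), with an upper bound of 1.76-fold. LMX1A was at 41.0 and 27.8 against 44.65 and 33.5 CPM (0.195, interval −0.44 to 0.83). OTX2, which marks forebrain and midbrain, was at 122 and 114 against 160 and 142 CPM (0.35, interval −0.22 to 0.93), with no overlap between groups. CORIN was low at both doses, at 6.82 and 2.15 against 3.83 and 1.62 CPM. GLI3, a transcription factor of the SHH pathway, was higher, at 9.71 and 21.5 against 24.2 and 37.5 CPM (1.02 ± 0.31; adjusted p = 0.0369 in the 4-library fit), whereas PTCH1, the SHH receptor and target, was at 231 and 339 against 139 and 280 (−0.51, interval −1.24 to 0.22).

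**Figure D3:**
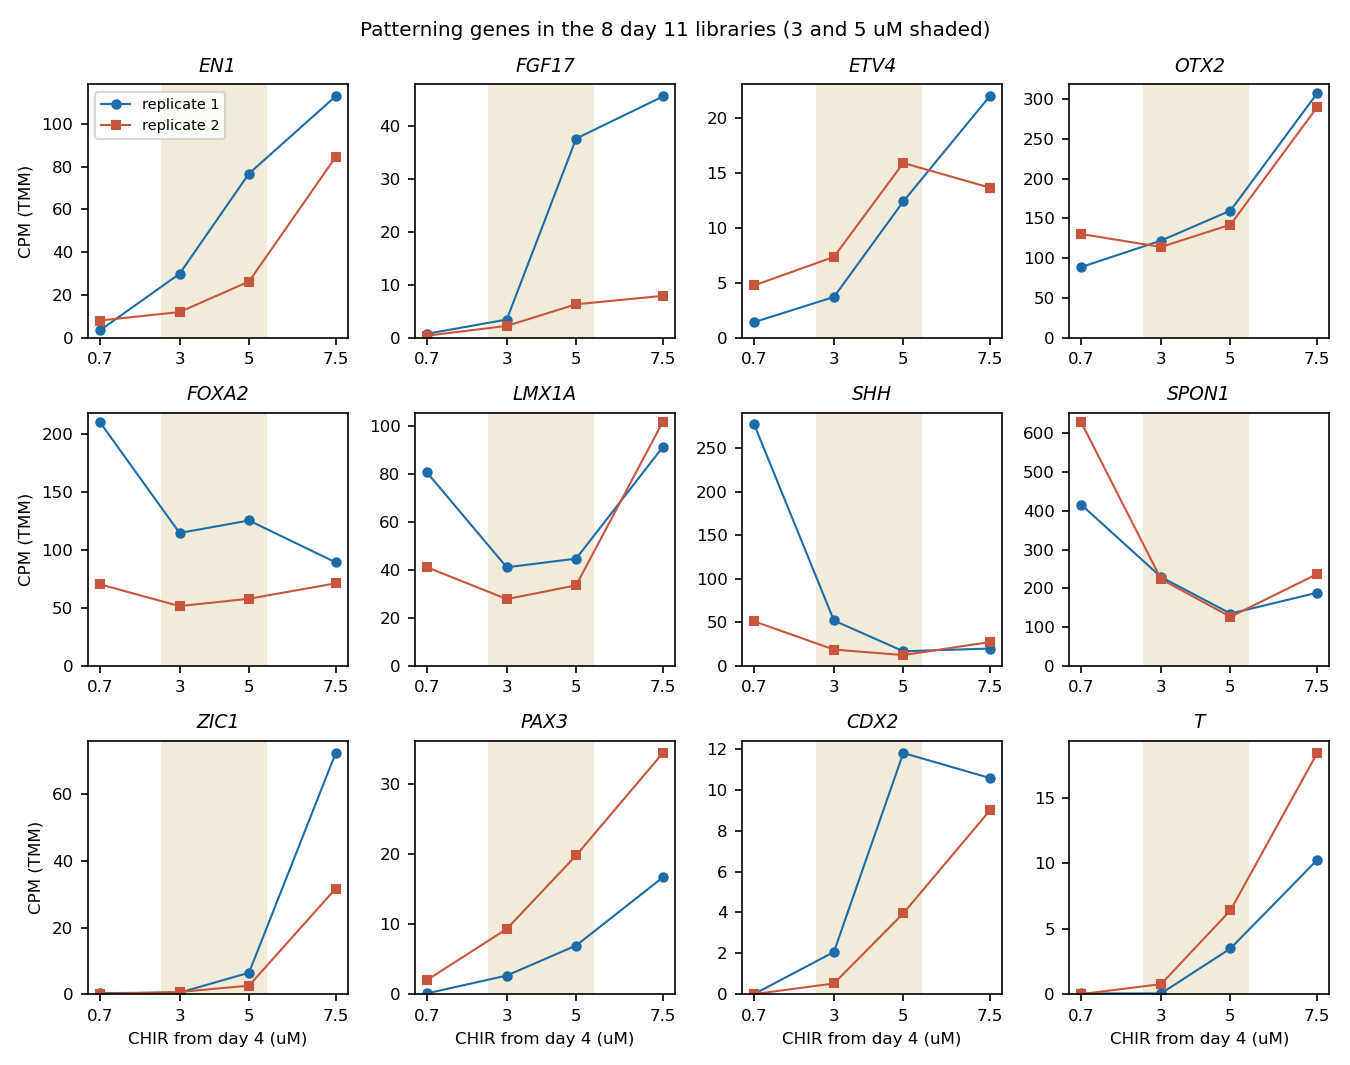
CPM of 12 patterning genes (vertical axes, from 0) against the CHIR dose from day 4 in µM (horizontal axes), with replicate 1 as circles and replicate 2 as squares and the 3 and 5 µM libraries in the shaded band. EN1, FGF17 and ETV4 are higher at 5 than at 3 µM in both replicates, SHH and SPON1 lower, and FOXA2 and LMX1A differ little.

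Dorsal and caudal genes held some of the highest ratios, most of them from low levels. Of 13 dorsal genes tested 10 had a positive and 3 a negative estimate, against 47.4% positive among all genes tested, with a median of 0.258. Of them 3 were shifted higher, against 1.56% of genes of at least 5 CPM. Of 7 caudal and mesoderm genes tested 5 had a positive and 2 a negative estimate. PAX3, a dorsal neural tube factor, stood at 2.64 and 9.29 CPM at 3 µM and at 6.93 and 19.8 at 5 µM (adjusted p = 0.0363 in the 4-library fit). BMP4, a dorsalizing signal, was at 2.499 and 6.03 against 5.46 and 15.2 CPM (adjusted p = 0.042 in the 4-library fit). Both were higher in each pair, by 1.24 and 1.05 for PAX3 and by 0.99 and 1.26 for BMP4, while replicates overlapped across doses. ZIC1, at 0.433 and 0.624 CPM against 6.42 and 2.53, rested on 27 counts at 3 µM against 208 at 5 µM (adjusted p = 0.0354 in the 4-library fit). BMP7 was bounded inside 1.5-fold, at 236 and 127 against 232 and 137 CPM (0.04, interval −0.49 to 0.575).

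CDX2, a caudal transcription factor, was at 2.07 and 0.520 CPM against 11.8 and 3.96 (log2 2.65 ± 0.48; adjusted p = 0.0147 in the 4-library fit). T (brachyury, a marker of nascent mesoderm and caudal progenitors) rested on 23 counts at 3 µM against 300 at 5 µM, or 0.04805 and 0.7625 against 3.49 and 6.41 CPM (adjusted p = 0.0261 in the 4-library fit). HES7, an oscillating gene of presomitic mesoderm, went the other way, from 25.8 and 25.2 to 10.75 and 12.8 CPM (adjusted p = 0.0314 in the 4-library fit). The mesoderm genes TBX6 and MSGN1 stayed low: TBX6 was at 0.728 to 1.06 CPM, and MSGN1 had at most 4 counts in a library.

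Of the forebrain genes, all 7 tested genes of the diencephalon and hypothalamus had a negative estimate (52.6% of all genes tested did) and none reached 5 CPM, with a median of −0.633. Of 4 tested genes of the telencephalon 2 were positive, EMX2 (1.05, interval −0.72 to 2.82) and HESX1 (0.27, interval −0.55 to 1.08), and none reached 5 CPM. NKX2-1, which marks the ventral forebrain, was at 0.577 and 0.866 CPM against 0.169 and 0.242 (interval −3.37 to −0.14).

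Of 15 cell cycle genes 14 had a positive estimate, again against 47.4%, and the median was 0.316. Of them 3 were shifted higher, against 1.56% of genes of at least 5 CPM. The 8 inside 2-fold were among 14 members of at least 5 CPM, and 76.9% of all genes of that level lay inside 2-fold. MKI67, a marker of cycling cells, was at 44.4 and 57.8 CPM at 3 µM and at 73.25 and 86.6 at 5 µM (log2 0.655 ± 0.231; interval 0.14 to 1.17; adjusted p = 0.0484 in the 4-library fit). CCNB1, the mitotic cyclin, was at 71.6 and 46.8 against 120 and 69.6 CPM (adjusted p = 0.0427 in the 4-library fit). CCNA2 was the third, at 36.8 and 29.1 against 54.6 and 42.4 CPM. CCND2, a cyclin of the first gap phase, was the member with a negative estimate, at 443 and 705 against 330 and 448 CPM (−0.55, interval −1.12 to 0.025).

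Of 14 general progenitor genes 10 had a negative estimate, against 52.6% of all genes tested, and the median was −0.236. The 5 bounded inside 2-fold were among 12 members of at least 5 CPM, against 76.9% of all genes of that level. SOX2 was at 201 and 323 CPM against 155 and 272 (−0.31, interval −0.94 to 0.32), and HES1 was bounded inside 2-fold at −0.04 (−0.54 to 0.46). FABP7, a radial glia protein, was the shifted member, lower by 0.76 and 0.87 in the pairs (adjusted p = 0.0382 in the 4-library fit). Of the neuronal genes DCX, a marker of young neurons, was at 45.1 and 76.6 against 22.35 and 51.35 CPM (−0.80, interval −1.34 to −0.27), while TUBB3 was at 27.0 and 31.5 against 24.1 and 29.2. GAD1, the enzyme of GABA synthesis, was higher, at 12.45 and 33.4 against 27.65 and 57.1 CPM (adjusted p = 0.0355 in the 4-library fit). TH, the rate-limiting enzyme of dopamine synthesis, had 0 and 2 counts at 3 µM and 1 and 7 at 5 µM. GFRA1, a GDNF co-receptor, was at 16.3 and 11.1 against 4.505 and 5.55 CPM and DLK1 at 164 and 377 against 69.65 and 233.5 CPM (adjusted p = 0.0478 and 0.0334 in the 4-library fit).

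Several of the largest shifts held in both pairs lay outside these lists. DCC (ENSG00000187323.7), the netrin receptor of growing axons, stood at 16.3 and 14.9 CPM at 3 µM and at 1.97 and 2.56 at 5 µM (log2 −2.905 ± 0.502; interval −4.02 to −1.79; adjusted p = 0.502 in the 8-library fit and 0.00495 in the 4-library fit). Its replicates were close at both doses, and the groups did not overlap. LRP2 (ENSG00000081479.8), the endocytic receptor megalin, which takes up SHH among other ligands, was at 239 and 391 against 82.0 and 154 CPM (−1.445 ± 0.26; adjusted p = 0.00345 in the 4-library fit). COL21A1, a collagen, was at 7.35 and 9.53 against 2.14 and 3.04 CPM, and PRSS23, a secreted protease, at 75.9 and 107 against 29.7 and 50.8. CAPN6 was at 72.7 and 60.9 against 30.7 and 30.4 CPM, and RASGEF1B at 13.2 and 49.7 against 6.59 and 24.2. All but RASGEF1B separated the doses without overlap.

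On the higher side CA4, a carbonic anhydrase, was at 3.51 and 2.67 CPM against 19.9 and 11.4 (log2 2.33 ± 0.38; interval 1.49 to 3.16; adjusted p = 0.00842 in the 4-library fit). SPOCK1, a matrix proteoglycan, was at 7.30 and 19.2 against 27.25 and 58.3 CPM (adjusted p = 0.00645 in the 4-library fit). CDH6, a cadherin, was at 2.35 and 4.055 against 8.73 and 13.0, and ERVMER34-1, a gene of retroviral origin, at 2.595 and 3.99 against 6.93 and 13.4. EGFLAM, SH3RF3 and TNFRSF11B, a decoy receptor of the TNF family, had 1.42, 1.26 and 1.23 as the smaller of their pair shifts. The groups of CA4, SPOCK1, CDH6, SH3RF3 and ERVMER34-1 did not overlap at all, whereas those of EGFLAM and TNFRSF11B did.

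**Figure D4:**
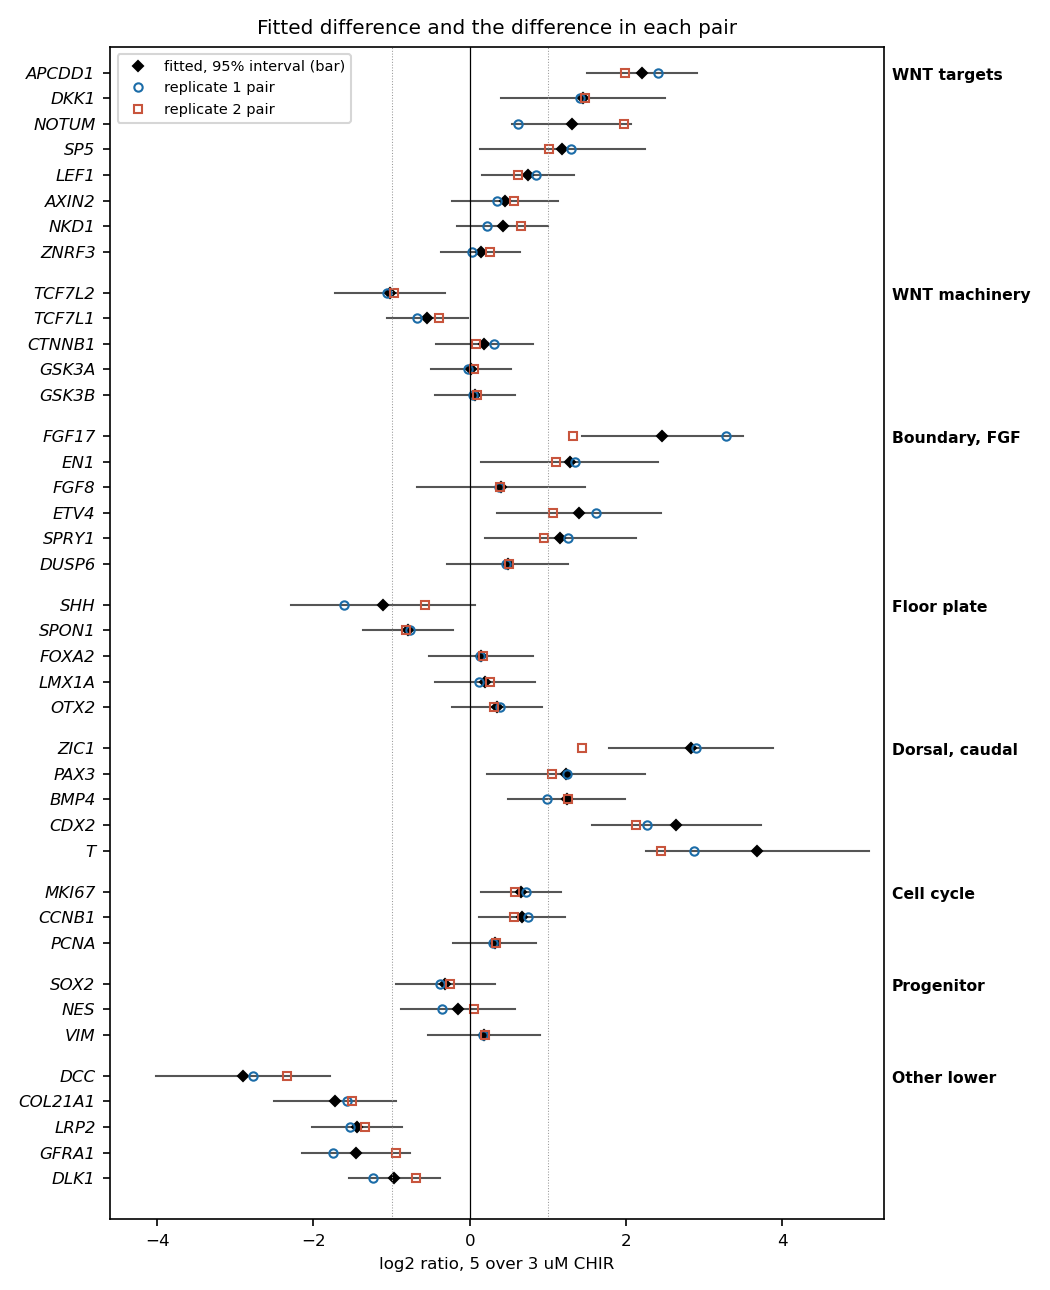
Fitted log2 ratio of 5 over 3 µM CHIR (diamonds, 8-library fit) with its 95% interval (bars) on the horizontal axis for genes listed on the vertical axis, and the log2 ratio in the replicate 1 pair (circles) and the replicate 2 pair (squares); dotted lines mark 2-fold. The intervals of APCDD1, FGF17, ZIC1, CDX2, T and DCC lie wholly past 2-fold, while those of GSK3A, GSK3B, FOXA2 and LMX1A lie inside it. Each interval is for a single gene, without adjustment for the number tested, and some genes were named for their large pair shifts. None of the genes shown passed the 8-library test after adjustment.

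How small a difference these libraries could bound depended on the level. The 95% interval lay inside 2-fold for 9366 genes (50.1% of 18709), and for 8936 of the 11618 genes of at least 5 CPM (76.9%). Inside 1.5-fold lay 762 genes, 4.07% of all and 6.56% of those of at least 5 CPM. No gene under 1 CPM was bounded within 2-fold, against 59.8% from 5 to 20 CPM and 85.3% from 20 to 100 CPM. The median distance from the estimate to the end of its interval was 0.752 on the log2 scale over all genes, or 1.68-fold, and 0.632, or 1.55-fold, from 5 CPM. Among the lists, 5 of 10 p53 targets and 7 of 10 genes of cholesterol synthesis were bounded inside 2-fold, with medians of −0.083 and −0.132.

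**Figure D5:**
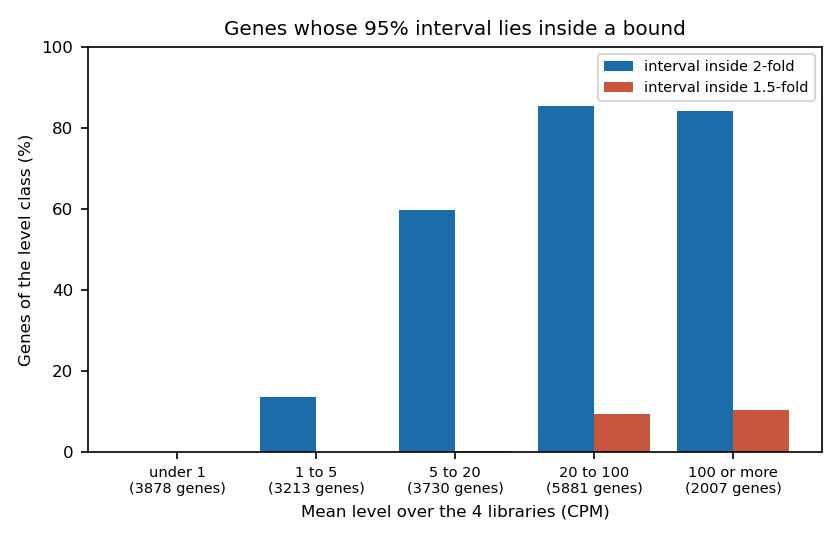
Percentage of genes (vertical axis) whose 95% interval for 5 against 3 µM lies inside 2-fold or inside 1.5-fold, by mean level over the 4 libraries in CPM (horizontal axis). The share inside 2-fold is 13.4% from 1 to 5 CPM and 85.3% from 20 to 100 CPM.

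The step from 3 to 5 µM was also set against the next step, from 5 to 7.5 µM, in the same fit. The steps span unequal doses and share the 5 µM libraries. No gene passed that difference of steps (0% of 18709; smallest adjusted p = 0.841; 904 genes at an unadjusted p under 0.05; DESeq2 with the block called 9). Without replicate 2 at 7.5 µM 704 genes passed. For NOTUM the second step was smaller than the first by 2.04 on the log2 scale, for FGF17 by 2.17 and for CDX2 by 2.08, while for APCDD1 the difference of steps was 0.29 and for MKI67 1.19, none of which passed.

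Markers of other cells were read in the same libraries, and their part in the results was not tested. Of 9 mesenchymal and vascular markers found in the files 4 reached 5 CPM. The 9 summed to 68.6 and 327 CPM at 3 µM and to 92.3 and 524 at 5 µM. Most of that was COL1A2, at 48.1 and 255 against 63.0 and 403 CPM, which was not counted as shifted. COL1A1 was shifted, higher by 0.95 in each pair. Of the 7 such genes tested 4 had a positive and 3 a negative estimate. Of 8 neural crest markers 2 reached 5 CPM, FOXD3 was at 0, and the sum was 465 and 365 CPM against 306 and 287, nearly all of it NGFR (437 and 314 against 282 and 238). SNAI2 was at 0.4805 and 3.015 against 1.18 and 4.58 CPM and TFAP2B at 0.192 and 0.797 against 0.394 and 1.08, and of the 5 crest genes tested 3 had a positive and 2 a negative estimate. The 6 neuronal markers summed to 85.7 and 142 against 57.1 and 109 CPM. Most of that difference was DCX itself, at 45.1 and 76.6 against 22.35 and 51.35 CPM. Of the 13 neuronal and proneural genes tested 7 had a positive and 6 a negative estimate, with a median of 0.096. Shifted lower were 2 of them, DCX and ELAVL3 (4.61 and 13.9 against 2.65 and 9.16 CPM), and 0 were shifted higher. MAP2 was at 103 and 207.5 against 133 and 261 CPM. The 8 epithelial and endodermal markers summed to 591 and 327 against 500 and 356 CPM, with SOX17 at 0. In bulk RNA fewer cells of a type and less RNA per cell cannot be told apart. Hypoxia genes differed between replicates in both groups (VEGFA at 63.4 and 420 CPM at 3 µM and 48.25 and 323 at 5 µM), and of 12 such genes NDRG1 alone was shifted, lower by 0.90 and 0.61. In GENCODE 29, 57 of the 157 named genes with an entry share an exon with another gene, among them DKK1, LEF1, AXIN2, ETV4, TCF7L2, PRSS23, DCC and the neighbours ZIC1 and ZIC4. Whether counting used strand is not given in the sources used here, and reads of such partners cannot be told apart.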

How the data were processed

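RNA-seq libraries of 4 day 11 cultures (5 and 3 µM CHIR, 2 each) were compared, and the other 4 day 11 libraries (0.7 and 7.5 µM) joined the fit; the remaining 6 of the series were not used here. The authors deposited raw gene counts, with 57445 gene entries in each library. Per the submitters' processing notes the tools were HTSeq 0.5.3, DESeq2 1.12.4, STAR 2.4.2a and featureCounts 1.4.2, with hg19 as genome; of library kit, strand setting and treatment of multiple hits nothing is stated in the labels. The 5 summary entries (no feature, ambiguous, not unique and the like), 37.41% to 44.27% of each table, were left out.

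Counts were scaled by TMM, filtered with filterByExpr (18709 genes kept) and tested in R 4.3.3 with limma 3.58.1 and edgeR 4.0.16, by robust quasi-likelihood with dose and replicate block, 3 residual degrees of freedom, Benjamini-Hochberg adjustment and a threshold of 0.05. Intervals are 95% t-intervals from the fit's standard error, each for a single gene and not adjusted for the number of genes tested. Replicate numbers were taken to pair the libraries: deviations of same-numbered libraries correlated at 0.701 to 0.923 over the 6 pairs of dose groups, and the descriptions carry a shared code per number. Pair shifts used log2 of CPM plus 0.5 and a mean of at least 5 CPM. Alternatives were no block, DESeq2's size factors, no filter, DESeq2 1.42.0, limma-voom, non-robust dispersion, 6 or 4 libraries, and leaving out each library; the other 4-library methods were added after seeing the data. Fits were tested on simulated data. No 2 libraries were identical.

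Genes were named as: up to 10 passing in each direction (there were none); the 10 higher and 10 lower with the largest smaller-pair shift; up to 4 per list shifted by at least 0.25 in both pairs; 40 set genes; and up to 3 per list with the narrowest interval. The text gives those that carry a result, and some list members besides, chosen after their values were seen. Some genes that the rule takes are not reported here. Members and lists were chosen with earlier results of these data known.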

Additional observations from a re-analysis of the deposited data

How the results depend on the processing

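Without the replicate block 0 genes passed and 1374 instead of 9366 were bounded inside 2-fold; 738 instead of 307 were then shifted in the group means. Genes passing for 5 against 3 µM were 0 with DESeq2's size factors, limma-voom, non-robust dispersion or 6 libraries, 33 with DESeq2 and the block, 74 without the filter on low counts and 120 in the 4-library fit; with methods chosen after seeing the data, the 4-library count was 44 (limma-voom), 360 (DESeq2), 1181 (DESeq2's size factors) or 1007 (no filter). The cause was not tested. Leaving out each library gave 0 to 1 passing genes (DCC, without replicate 2 at 3 µM) and 2276 to 11504 bounded genes, fewest where a 3 or 5 µM library was left out, which leaves that group 1 library assumed to vary like the others. For the difference of steps, 26 passed without the filter, 9 with DESeq2, and 0 to 704 on leaving out a library. Bounded inside 1.5-fold were 762. Shifted genes numbered 1616 (735 higher, 881 lower) at a threshold of 0.25, 36 (32, 4) at 1, 506 (314, 192) at a minimum of 1 CPM, 636 (406, 230) with none and 326 (163, 163) with DESeq2's size factors; leaving out replicate 1 or 2 gave 677 (442, 235) and 1589 (550, 1039). The 738 without the block were 334 higher and 404 lower. Of 2518 values of named genes under these settings 82 passed newly and 58 had the other sign, 54 of them on leaving out a library and 4 otherwise (LGR5 in 3 fits, NOTCH2 without the block). Among the 95 named genes that had a direction (an unadjusted p under 0.05, or both pairs at 0.25 or more), the sign turned for FGF8, whose estimate ran from −0.024 (without replicate 1 at 5 µM) to 0.862 (without replicate 1 at 3 µM). At 2 libraries a group, genes under 5 CPM were mostly not bounded.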

Other observations

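Few genes differed in opposite directions in the pairs, 18 of 11618, and 15 of these were lower in replicate 1 and higher in replicate 2. The heat shock genes HSPA1A and HSPA1B, near-identical copies whose reads cannot be told apart with certainty, went the other way. HSPA1A stood at 29.3 and 31.0 CPM in replicates 1 and 2 at 3 µM and at 69.6 and 13.6 at 5 µM, and HSPA1B at 46.4 and 68.3 against 66.7 and 27.2 CPM. KDR, a receptor of endothelial cells, was the third of that kind and was nearly absent from replicate 1, at 0.144 and 14.6 CPM at 3 µM against 0.563 and 7.73 at 5 µM. MIF, a secreted cytokine, was among the 15, at 316 and 67.3 CPM against 195 and 103.

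Several genes of low level differed by more than their lists' medians. TAL2, which marks GABAergic precursors in the midbrain, had 9 counts over the 3 µM libraries and 75 over the 5 µM libraries. HHIP, an SHH target and inhibitor, stood at 1.06 and 0.624 CPM at 3 µM against 0.113 and 0.162 at 5 µM. CDH1, an epithelial cadherin, was shifted lower, at 1.83 and 16.1 against 0.338 and 9.75 CPM, with the replicates further apart than the doses.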
